A study of Bos taurus with 8 samples.

Results

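Rab GTPases, SNARE proteins, syntaxin-binding proteins and exocyst subunits make up the machinery that forms, tethers and fuses transport vesicles. In this study of milk-producing udder tissue from Holstein cattle, 69 such genes were measured among 9155 genes with a named probe set. They were taken by symbol alone: RAB genes with a number and an optional letter, and the numbered STX, STXBP, VAMP, SNAP and EXOC genes. The 8 biopsies came from 4 cows, each sampled once full, after 12 h of milk stasis, and once empty, at 0 h with the milk just removed. All groups shared breed, tissue and lactating state, and the labels name no treatment other than milk accumulation, whose effect on the gland is what the series asks about. The sources used here do not give age, stage of lactation, the gland of the udder biopsied or the order of the biopsies, and neither the gland nor the order can be told apart from milk accumulation. Each value below is a log2 level on 1 array, and each difference is full minus empty within the same cow.

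Milk protein leaves the mammary epithelial cell by exocytosis. Caseins and lactose are packed in the Golgi into secretory vesicles, which travel to the apical membrane and fuse with it, while milk fat droplets bud off wrapped in that membrane. A Rab GTPase marks the identity of a membrane, cycles between a GTP-bound and a GDP-bound form and recruits motors and tethers. The exocyst is a complex that holds a vesicle at the plasma membrane before fusion. SNAREs drive the fusion itself: a VAMP on the vesicle zips together with a syntaxin and a SNAP protein on the target membrane, and syntaxin-binding proteins promote or block that pairing.

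Transcript levels of this machinery differed little between full and empty gland. Among the 69 genes 32 had a higher mean in full gland and 37 a lower one, and every mean difference lay between -0.31 (STXBP6) and 0.34 (RAB27B) log2. In limma's paired model none of the 69 reached an adjusted p of 0.05, and each had one between 0.993 and 0.999. Over all genes 0% passed as well. At an unadjusted p under 0.05 in limma 0 members were higher and 3 were lower, where 1.13% of all genes were higher and 1.67% lower. These 3 were STXBP6, RAB26 and SNAP23. The median difference was -0.02 over the 69 genes and -0.0036 over all 9155 genes, and the members' median turned to 0.0074 with cow 3 left out.

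The precision of these differences sets what can be said of the genes that did not pass. Over the members, the median reach of limma's 95% interval to either side of the mean was 0.25 log2. It lay wholly within a 1.5-fold change in either direction for 66 of the 69 members, against 87.9% of all genes. For RAB27B, RAB7B and RAB25 it reached past 1.5-fold, and for all 69 it stayed within 2-fold. No member had a mean difference above 1.5-fold, as 35 of the 9155 genes did. Of the 69 members 53 (76.8%) lay above the median signal of all probe sets, against 67.7% of all genes. The count of 66 takes in dim ones. The narrowest interval, 0.16 to either side, was that of RAB19, with dim mean levels of 6.06 in empty and 6.11 in full gland. For a dim probe set a narrow interval may not bound the change of its transcript. These intervals describe transcripts only.

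**Figure D1:**
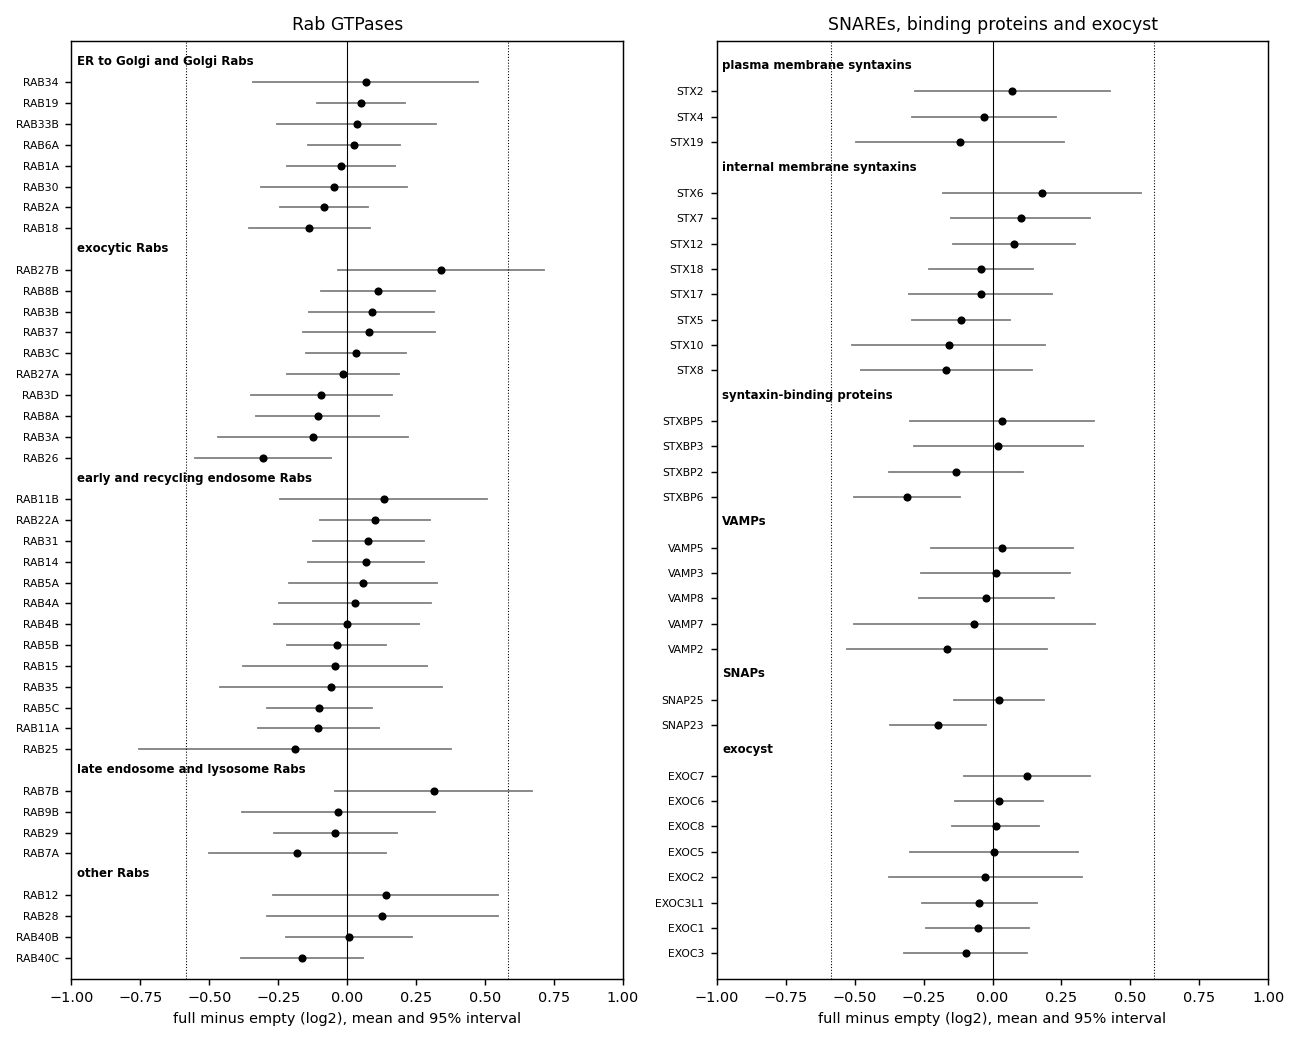
Mean full minus empty difference (log2, point) with limma's 95% interval (line) for each of the 69 genes, grouped by role and with dotted lines at a 1.5-fold change. The intervals of STXBP6, RAB26 and SNAP23 lie below 0, and those of RAB27B, RAB7B and RAB25 cross a dotted line.

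The arrays themselves were not all alike. The full libraries of cows 2 and 4 correlated less well with the rest, at a median r of 0.969 and 0.975 where the other 6 arrays had 0.986 or 0.987. In full gland of cow 2 the GAPDH control probe sets at the 3' and 5' ends differed by 3.31 log2, against 1.53 to 2.13 elsewhere. The same difference for actin was 1.36 in full gland of cow 4 and between -0.07 and 0.07 in the other arrays. A wide 3' to 5' difference is a usual sign of shortened RNA, but neither array was wide for both controls. Of the 10 luminal epithelial markers, the milk protein genes were bright, with LALBA and PAEP at mean levels of 14.20 and 14.39 in full gland. The keratins KRT8 and KRT18 were nearer the array medians of 7.08 to 7.24, at 7.19 to 9.66 and 7.39 to 9.65. In cows 1 to 4 KRT8 differed by -0.72, 0.11, 0.25 and 1.21, and KRT18 by -0.04, 1.19, -0.05 and 1.36. A further luminal keratin, KRT19, was bright, at a mean of 13.34 in full gland, and differed by 0.14, 0.10, 0.07 and -0.09. The summed log2 level of 8 myeloid markers ran from 60.3 to 66.3 in full and from 61.2 to 62.5 in empty gland, and that of 8 fibroblast markers from 82.4 to 90.4 and from 83.0 to 86.1. No marker can be read as 0 on this scale. The part of RNA quality and cell makeup in the differences below was not tested, and in whole biopsies fewer cells of a type cannot be told apart from less RNA per cell.

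The syntaxin-binding protein STXBP6 had the smallest p of the 69 genes. Also called amisyn, it pairs with syntaxins in complexes that do not fuse. Its levels in cows 1 to 4 were 7.03, 6.90, 7.11 and 6.77 in empty gland and 6.91, 6.47, 6.79 and 6.41 in full gland. Every cow was lower when full, by 0.13 to 0.44 log2 in size, but the ranges of the groups overlapped, since full gland of cow 1 lay above empty gland of cow 4. The mean difference was -0.31 ± 0.08 (moderated standard error from limma over 4 cows, likewise for all differences below), or 1.24-fold lower, with an adjusted p of 0.993. The probe set lay below the median signal of the array, and its unadjusted p was 0.00803 in limma.

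RAB26 takes part in the maturation of secretory granules in exocrine cells. It measured 9.57, 9.33, 9.60 and 9.14 in empty gland of cows 1 to 4, and 9.48, 8.96, 9.41 and 8.55 in full gland. The differences were uneven, at -0.09 and -0.19 in cows 1 and 3 and -0.36 and -0.59 in cows 2 and 4. The mean was -0.31 ± 0.10 and the adjusted p 0.993 in limma, and full and empty ranges overlapped. With cows 2 and 4 left out the difference was -0.14.

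SNAP23, the SNAP protein of most non-neuronal cells, was the only member whose full and empty values did not overlap, which was so for 0.71% of all genes. Empty gland gave 10.79, 10.89, 10.81 and 10.78 in cows 1 to 4. Full gland gave 10.67, 10.71, 10.64 and 10.46, all below the lowest empty value. The mean difference was -0.20 ± 0.07, or 1.15-fold lower (adjusted p 0.993 in limma). A second SNAP23 probe set differed by -0.17 ± 0.07 and was lower in all 4 cows too. SNAP25, the neuronal relative, was dim on every array, between 5.30 and 5.49, and differed by 0.02 ± 0.07. It read 5.42, 5.33, 5.42 and 5.36 in empty and 5.43, 5.41, 5.49 and 5.30 in full gland. Its other probe set differed by -0.05.

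**Figure D2:**
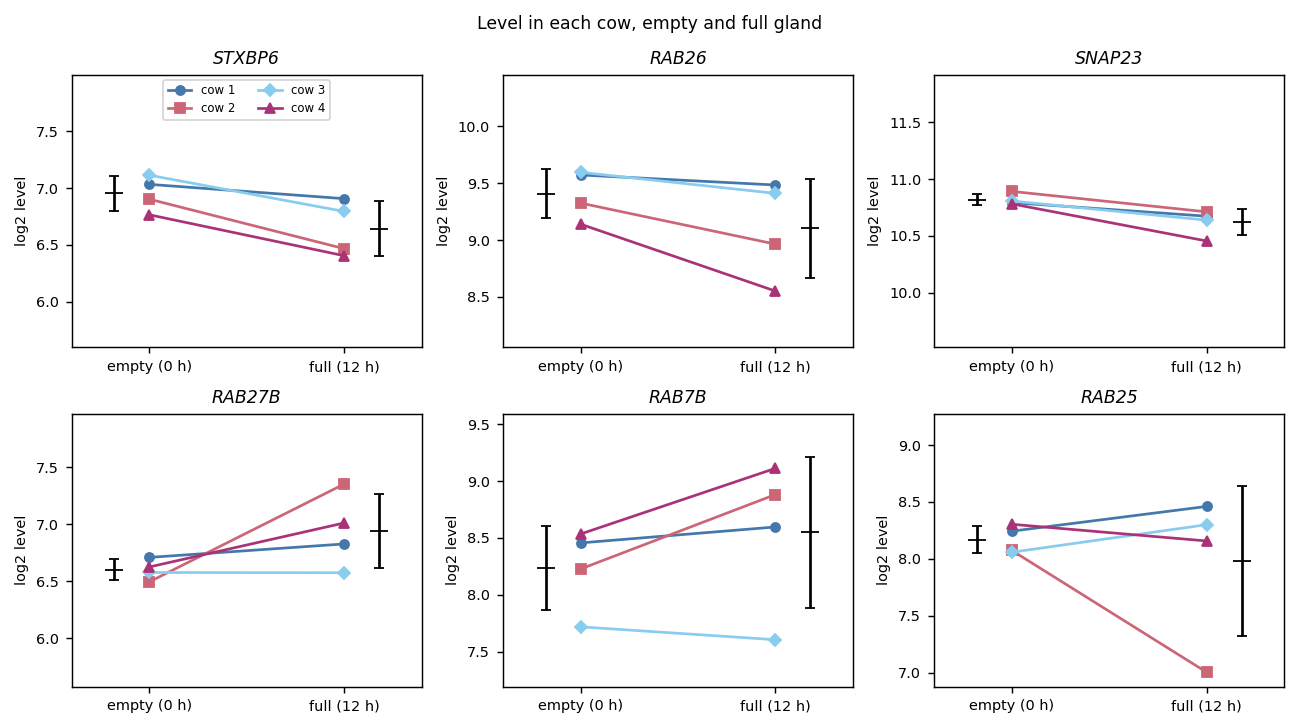
Log2 level in empty (0 h) and full (12 h) gland for 6 genes, with 1 line per cow and the mean ± SD of the 4 cows beside each state; all panels span the same height on the log2 axis. All 4 lines go down for STXBP6, RAB26 and SNAP23, while for RAB27B, RAB7B and RAB25 the lines of the cows diverge.

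Of the 69 genes 5 were lower in all 4 cows (7.25%) and 0 were higher in all 4, where 7.11% and 3.59% of all genes were. Besides the 3 above these were RAB2A and STX5, which both act between the endoplasmic reticulum and the Golgi. RAB2A read 11.51, 11.47, 11.68 and 11.45 in empty and 11.43, 11.45, 11.57 and 11.32 in full gland, a mean difference of -0.09 ± 0.06. STX5 read 9.81, 9.68, 9.84 and 9.73 in empty and 9.80, 9.62, 9.61 and 9.58 in full gland, a mean difference of -0.11 ± 0.07. The groups overlapped for both genes, and neither passed. The share of members lower in all cows was near that of all genes.

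The 8 Rabs of the early secretory pathway had a median difference of 0.0009 log2, 4 of them higher and 4 lower, with 0 called. RAB1A, which governs the step from the endoplasmic reticulum to the Golgi, was at 12.27 ± 0.16 in empty and 12.25 ± 0.10 in full gland (SD, n = 4 cows). RAB6A, which serves traffic within and out of the Golgi, was at 10.82 ± 0.15 and 10.85 ± 0.11. RAB18, found on lipid droplets and the endoplasmic reticulum, differed by -0.27 and -0.30 in cows 2 and 4 but by 0.06 and -0.04 in cows 1 and 3. RAB18 read 11.35, 11.41, 11.63 and 11.20 in empty and 11.41, 11.14, 11.60 and 10.90 in full gland, with a mean difference of -0.14 ± 0.09. The Golgi Rabs RAB19, RAB30 and RAB33B differed by 0.05, -0.05 and 0.03. RAB19, a dim one, read 6.11, 6.12, 5.97 and 6.05 in empty and 6.14, 6.20, 5.97 and 6.14 in full gland, and the ranges overlapped. RAB34, which acts in lysosome positioning and the making of cilia, ran from -0.30 in cow 1 to 0.64 in cow 4 with a mean of 0.07 ± 0.17.

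Among the 10 exocytic Rabs 5 were higher and 5 lower, with a median of 0.0076 and 0 called. The RAB3 group is known for a role in regulated exocytosis. Its member of exocrine granules, RAB3D, was at 11.21 ± 0.13 in empty and 11.11 ± 0.31 in full gland (SD, n = 4 cows). RAB3D differed by 0.05 and 0.14 in cows 1 and 3 and by -0.22 and -0.35 in cows 2 and 4. RAB3A, RAB3B and RAB3C had dim probe sets, between 5.29 and 6.73 in every array, and differed by -0.12, 0.09 and 0.03. RAB8A, which directs vesicles to the apical membrane, differed by -0.11 ± 0.09, while its second probe set differed by 0.0071.

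RAB27A and RAB27B dock secretory granules and multivesicular bodies at the plasma membrane. RAB27B had the largest mean difference of the 69 genes. It measured 6.71, 6.49, 6.58 and 6.63 in empty and 6.83, 7.35, 6.57 and 7.01 in full gland. Most of the difference lay in cow 2 (0.86) and cow 4 (0.39), against 0.12 in cow 1 and -0.0020 in cow 3, and the full range took in values from the empty one. The mean was 0.34 ± 0.15, or 1.27-fold higher, with a 95% interval of -0.03 to 0.71 and an adjusted p of 0.993 in limma. RAB27A, in contrast, was at 9.80 ± 0.22 in empty and 9.78 ± 0.26 in full gland (SD, n = 4 cows), with a mean difference of -0.02 ± 0.08. RAB37, a Rab of mast cell granules, differed by 0.08 ± 0.10.

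The 13 Rabs of early and recycling endosomes had a median of -0.0022, with 6 higher, 7 lower and 0 called. RAB5A, RAB5B and RAB5C, which control fusion of early endosomes, differed by 0.06, -0.04 and -0.10. RAB11A and RAB11B of the recycling endosome differed by -0.10 and 0.13, and RAB4A and RAB4B of the fast recycling route by 0.03 and -0.0022. RAB14 differed by 0.07, RAB15 by -0.04, RAB22A by 0.10, RAB31 by 0.08 and RAB35 by -0.06. Both RAB11A and RAB22A were split by cow. RAB11A read 11.10, 11.03, 11.18 and 11.10 in empty and 11.15, 10.73, 11.22 and 10.89 in full gland, with lower full values in cows 2 and 4 alone. RAB22A, which acts on early endosomes, read 8.29, 8.02, 8.13 and 8.33 in empty and 8.26, 8.29, 8.12 and 8.50 in full gland, with higher full values in cows 2 and 4 alone. RAB5C read 9.59, 9.45, 9.39 and 9.37 in empty and 9.50, 9.19, 9.44 and 9.27 in full gland, lower in full gland of every cow but cow 3, and the ranges overlapped for all 3 genes.

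RAB25, the epithelial relative of RAB11, had the widest interval of the members. Empty gland read 8.24, 8.07, 8.06 and 8.30 in cows 1 to 4, and full gland 8.46, 7.00, 8.30 and 8.16. A single library, full gland of cow 2, lay far below the other 7. The mean difference was -0.19 ± 0.23 over 4 cows, and it was 0.10 with cow 2 left out. The same array had the wide GAPDH difference given above, whose part was not tested.

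Late endosome and lysosome Rabs numbered 4, of which 1 was higher and 3 were lower, with 0 called. RAB7A, which takes cargo to the lysosome, differed by -0.64 in cow 2 and by -0.12 to 0.07 in the other cows (mean -0.18 ± 0.13). Its levels were 11.01, 10.83, 10.95 and 10.88 in empty and 10.98, 10.19, 11.02 and 10.76 in full gland, where the library of full cow 2 was the lowest of the 8. RAB7B, which works between late endosomes and the Golgi, read 8.46, 8.23, 7.72 and 8.53 in empty and 8.60, 8.88, 7.61 and 9.11 in full gland. It was higher by 0.65 and 0.58 in cows 2 and 4, by 0.14 in cow 1, and differed by -0.11 in cow 3, so that the mean of 0.31 ± 0.14 did not pass (adjusted p 0.993 in limma). Of the 8 myeloid markers 7 had a higher mean in full gland, and their median difference was 0.37 and 0.67 in cows 2 and 4 and -0.17 and -0.05 in cows 1 and 3. Markers of some other cell types had a like order of cows. In cows 1 to 4 the medians were -0.02, 0.30, -0.15 and 0.58 for myoepithelium, with 8 of 8 means higher, and -0.23, 0.16, -0.09 and 0.63 for fibroblasts, with 6 of 8. For lymphocytes they were -0.09, 0.29, -0.10 and 0.36, also with 6 of 8. Endothelial markers had another order, with medians of -0.11, -0.45, 0.17 and 0.09 and 2 of 6 means higher. The part of any of these cell types in the RAB7B values was not tested. RAB9B and RAB29 were dim and differed by -0.03 and -0.04. RAB29, linked to lysosomes and the Golgi, read 6.16, 6.06, 6.18 and 6.07 in empty and 6.06, 5.78, 6.29 and 6.16 in full gland.

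The remaining 4 Rabs had 3 higher means and 1 lower, with 0 called. RAB12, of transport from recycling endosomes to lysosomes, differed by 0.65 and 0.34 in cows 2 and 4 and by -0.19 and -0.24 in cows 1 and 3. RAB28, a Rab of cilia, went the same ways, at 0.75, 0.11, -0.15 and -0.21. RAB12 read 9.92, 9.72, 9.91 and 9.92 in empty and 9.73, 10.37, 9.67 and 10.26 in full gland. RAB28 read 6.36, 6.24, 6.63 and 6.33 in empty and 6.21, 6.99, 6.42 and 6.45 in full gland. For both the full values of cows 1 and 3 lay below their empty values. RAB40B and RAB40C, which carry a SOCS box and join ubiquitin ligases, differed by 0.0067 and -0.16 ± 0.09. RAB40C read 7.48, 7.05, 7.46 and 7.31 in empty and 7.23, 7.15, 7.28 and 6.99 in full gland, lower when full in every cow but cow 2.

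For the plasma membrane syntaxins, 1 of 3 was higher and 2 were lower, with 0 called. STX4, partner of SNAP23 in many cells, was at 8.36 ± 0.21 in empty and 8.33 ± 0.17 in full gland (SD, n = 4 cows), with 8.57, 8.24, 8.13 and 8.49 in empty and 8.43, 8.09, 8.45 and 8.33 in full gland. It was lower when full in every cow but cow 3. STX2, also known as epimorphin, differed by 0.44 and 0.31 in cows 2 and 4 and by -0.31 and -0.14 in cows 1 and 3. STX19, a syntaxin without a membrane span, did the reverse, at -0.44 and -0.46 in cows 2 and 4 and 0.29 and 0.14 in cows 1 and 3. STX2 read 8.25, 8.11, 8.03 and 8.38 in empty and 7.93, 8.55, 7.89 and 8.69 in full gland. STX19 read 8.11, 8.07, 8.46 and 8.11 in empty and 8.41, 7.62, 8.59 and 7.66 in full gland. Their means were 0.07 ± 0.14 and -0.12 ± 0.15, and the full values spread on both sides of the empty ones.

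The 8 syntaxins of internal membranes had a median of -0.04, with 3 higher, 5 lower and 0 called. STX6 and STX10 of the Golgi exit face differed by 0.18 ± 0.15 and -0.16 ± 0.14. STX6 rested on cow 2, where it was 0.70 higher, and STX10 was lower by 0.55 in size in the same cow. STX6 read 7.90, 7.96, 8.29 and 8.63 in empty and 7.89, 8.67, 8.17 and 8.78 in full gland, so that cow 4 was high in both states. The late endosomal STX7 and STX8 differed by 0.10 and -0.17, the recycling syntaxin STX12 by 0.08, STX17 of autophagosomes by -0.04 and STX18 of the endoplasmic reticulum by -0.04. STX8 read 10.30, 10.37, 10.29 and 10.19 in empty and 10.39, 9.76, 10.24 and 10.08 in full gland, lowest in full gland of cow 2.

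Apart from STXBP6, the syntaxin-binding proteins had mean differences of -0.13 to 0.03. STXBP2, or Munc18-2, which promotes granule fusion, was at 9.44 ± 0.14 in empty and 9.31 ± 0.30 in full gland (SD, n = 4 cows), a difference of -0.13 ± 0.10 that came mostly from cow 4 (-0.44). Its levels were 9.62, 9.32, 9.49 and 9.33 in empty and 9.62, 9.35, 9.36 and 8.89 in full gland, and the groups overlapped. STXBP3, or Munc18c, the partner of STX4, differed by 0.02 ± 0.12. STXBP5, or tomosyn, which blocks SNARE pairing, differed by 0.03 ± 0.14, with 0.46 in cow 2 and -0.28 in cow 1. STXBP5 read 7.90, 7.49, 7.91 and 7.84 in empty and 7.62, 7.95, 7.74 and 7.98 in full gland, and its lowest value was in empty gland of cow 2.

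Of the 5 VAMPs 2 were higher and 3 lower, with a median of -0.02 and 0 called. VAMP8, a vesicle SNARE of endosomes and exocrine granules, was at 10.32 ± 0.09 in empty and 10.30 ± 0.29 in full gland (SD, n = 4 cows), but its dimmer probe set differed by 0.22 ± 0.16. VAMP3, of recycling vesicles, was at 10.65 ± 0.10 and 10.66 ± 0.22. VAMP2 differed by -0.17 ± 0.15 and VAMP7, which serves lysosome exocytosis, by -0.07 ± 0.18, with -0.68 in cow 2 and 0.43 in cow 3. VAMP2 read 8.56, 8.56, 8.06 and 8.34 in empty and 8.84, 8.04, 8.05 and 7.93 in full gland, highest in full gland of cow 1. VAMP7 read 8.68, 8.67, 8.52 and 8.64 in empty and 8.72, 7.99, 8.95 and 8.58 in full gland, lowest in full gland of cow 2. VAMP5, known from muscle, differed by 0.04 ± 0.10. It read 7.33, 7.12, 7.17 and 7.77 in empty and 7.11, 7.35, 7.07 and 8.01 in full gland, and both values of cow 4 were above all others.

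In the probe set chosen for each gene, the exocyst members had no mean difference beyond 0.13 log2 in size. A second EXOC1 probe set differed by 0.26 ± 0.14. The 8 genes include EXOC3L1 and not EXOC4, which was not among the members. They had 4 higher and 4 lower means, a median of -0.01 and a range of -0.10 to 0.13, with 0 called. EXOC7, a subunit that binds lipids of the plasma membrane, read 9.46, 9.23, 9.27 and 9.35 in empty and 9.43, 9.63, 9.36 and 9.38 in full gland, a mean difference of 0.13 ± 0.09. EXOC8 was at 8.90 ± 0.11 in empty and 8.91 ± 0.09 in full gland, and EXOC6 at 8.29 ± 0.08 and 8.32 ± 0.05 (SD, n = 4 cows). EXOC1, EXOC2, EXOC3 and EXOC5 differed by -0.05, -0.03, -0.10 and 0.0049, and EXOC3L1, a relative of EXOC3, by -0.05. EXOC1 read 8.92, 9.26, 8.96 and 8.999 in empty and 8.86, 9.20, 8.77 and 9.09 in full gland, lower when full in every cow but cow 4. EXOC3, dimmer, read 7.07, 6.71, 6.74 and 6.83 in empty and 6.79, 6.59, 6.60 and 6.99 in full gland, with the same exception.

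Although the means were small, individual cows were not all quiet. In cows 1 to 4 the members' differences had SDs of 0.18, 0.39, 0.17 and 0.25, beside 0.19, 0.40, 0.17 and 0.33 over all genes. Differences above 1.5-fold were seen for no member in cows 1 and 3, for 10 in cow 2 and for 2 in cow 4. Over all genes the shares were 1.13%, 12.4%, 0.623% and 8.19%, so that cow 4 moved 2.90% of the members and cow 2 moved 14.5%. In cow 2 they were RAB25, VAMP7, RAB7A and STX8 on the lower side and RAB27B, RAB28, STX6, RAB7B, RAB12 and RAB11B on the higher side. In cow 4 they were RAB26, lower, and RAB34, higher.

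Cows 2 and 4 often went against cows 1 and 3. The members that were higher in cows 1 and 3 and lower in cows 2 and 4 numbered 11 (15.9%, against 8.88% of all genes), and 15 went the other way (21.7%, against 17.3%). Across the 69 genes, which are not independent replicates, the differences of cows 2 and 4 correlated at r = 0.51 and those of cows 1 and 3 at r = 0.31. The other 4 pairings gave r = -0.34 (cows 1 and 2), -0.46 (1 and 4), -0.49 (2 and 3) and -0.15 (3 and 4). Over all genes the 6 values were of the same sign, at 0.46 and 0.17 for the first pairs and between -0.36 and -0.05 for the rest. Full libraries of cows 2 and 4 each had a wide 3' to 5' difference in 1 control, GAPDH in cow 2 and actin in cow 4. The other control was not wide, at -0.07 for actin in cow 2 and 1.71 for GAPDH in cow 4. Many markers of 4 cell types moved with the same split. Lower in cows 1 and 3 and higher in cows 2 and 4 were 5 of 8 for myoepithelium, for fibroblasts and for lymphocytes, and 4 of 8 for myeloid cells. Fewer did so among luminal (1 of 10), endothelial (0 of 6), adipocyte (0 of 4) and skeletal muscle (0 of 7) markers. The counts were 1 of 2 for mast cells and 2 of 7 for neurons and Schwann cells. What RNA quality or these cell types contributed was not tested.

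**Figure D3:**
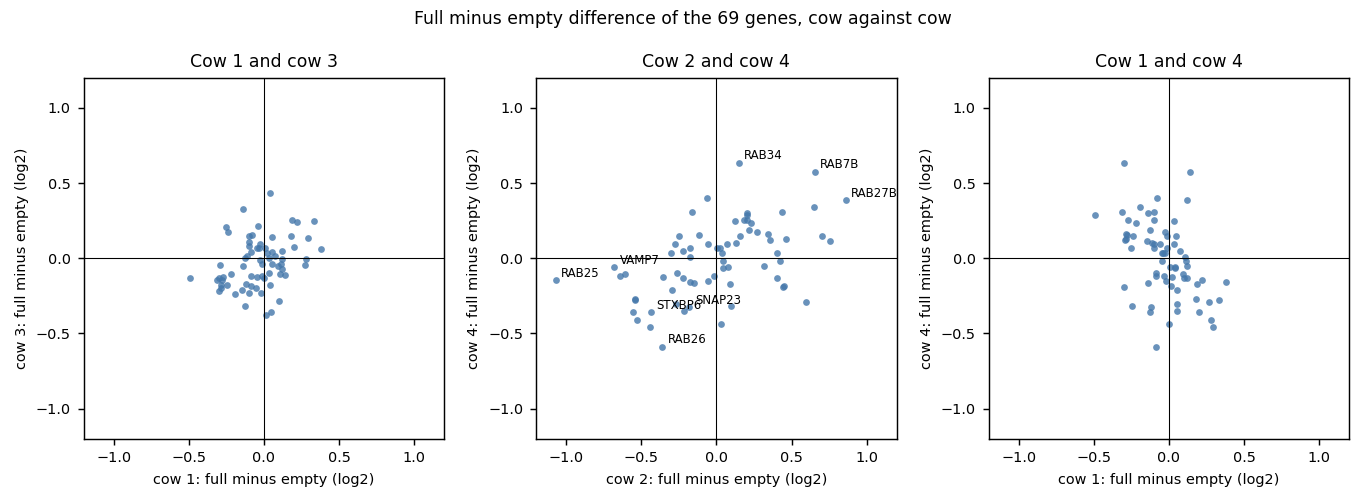
Full minus empty difference (log2) of the 69 genes in cow 3 against cow 1, cow 4 against cow 2 and cow 4 against cow 1, 1 point per gene. Points of cows 2 and 4 rise together (r = 0.51), and those of cows 1 and 4 run opposite (r = -0.46).

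Levels were also compared between the 4 animals, by an F-test on the cow terms of the limma model, in which the full and the empty sample of a cow come from 1 animal. None of the 69 genes passed an adjusted p of 0.05, where 0.481% of all genes did, and 12 had an unadjusted p under 0.05 (17.4%, against 16.9% of all genes). The smallest adjusted p was that of RAB8B, a Rab of vesicle transport to the cell surface, at 0.148. Its levels were 9.67, 10.03, 9.25 and 9.51 in empty and 9.57, 10.23, 9.33 and 9.76 in full gland, so that cow 2 was highest and cow 3 lowest in both states. The means of the cows spanned 0.83 log2, while full and empty differed by 0.11 ± 0.08. A second, dimmer RAB8B probe set had an unadjusted p of 0.195 in that F-test, against 0.00282 for the chosen one. Its full minus empty difference was -0.03 ± 0.10.

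The next members by that test were chosen after their values were seen. STX18 was highest in cow 1, at 7.48 and 7.59, and lowest in cow 4, at 6.89 and 6.90 (adjusted p 0.186 in limma). RAB7B was lowest in cow 3, with both values below every other one (adjusted p 0.195 in limma). VAMP5 was highest in cow 4, at 7.77 and 8.01, against 7.07 to 7.35 in the other animals (adjusted p 0.200 in limma).

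**Figure D4:**
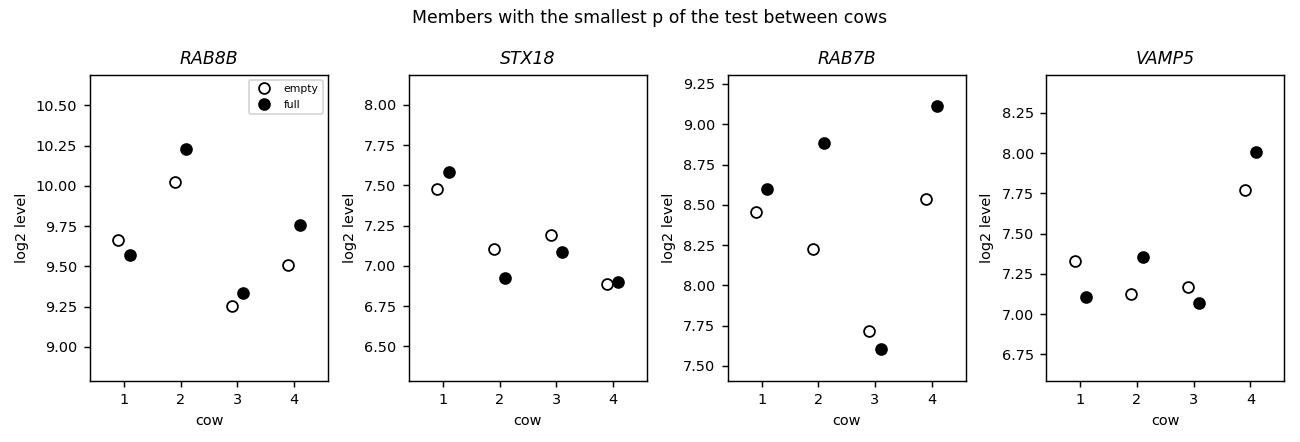
Log2 level of RAB8B, STX18, RAB7B and VAMP5 in each cow, with open points for empty and filled points for full gland. For RAB8B the highest pair is that of cow 2, for STX18 that of cow 1, and for VAMP5 that of cow 4; in RAB7B both values of cow 3 are the lowest.

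Probe sets of the same gene did not always go the same way, which bears on how small a difference can be read. Of the 69 genes 19 had more than 1 probe set, 91 probe sets in all. In 10 of these genes all probe sets had mean differences of the same sign, and in 9 they did not. Of these 19 genes, SNAP23 alone had every probe set lower in all 4 cows. RAB35 differed by -0.06 and -0.29, RAB5B by -0.04 and 0.13 and RAB6A by 0.02 and -0.12. The 4 probe sets of EXOC1 differed by -0.05, 0.26, 0.04 and -0.0094. None of the 91 passed in limma.

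**Figure D5:**
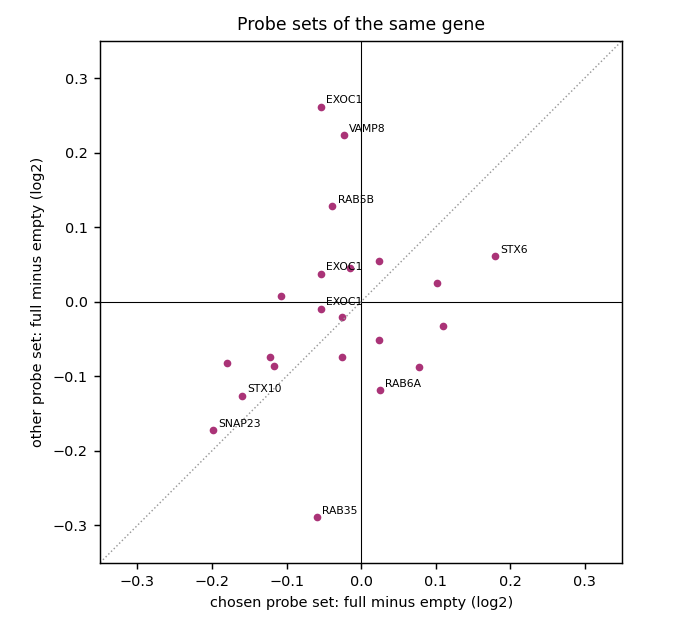
Full minus empty difference (log2) of each further probe set against that of the chosen, brightest probe set of its gene, with a dotted line of equality. The SNAP23 pair lies near that line at -0.20 and -0.17, while EXOC1, VAMP8 and RAB5B have points of opposite sign.

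Partners of the machinery outside the 69 genes also gave 0 calls. Not all listed partners were measured: 9 of 16 Rab regulators, 10 of 12 further SNAREs, 14 of 22 recycling and priming genes and 6 of 19 effectors. Among 9 regulators and prenylating enzymes of Rabs 2 were higher and 7 lower (median -0.06), and among 10 further SNAREs 1 was higher and 9 lower (median -0.08). Over all genes 48.6% were higher and 51.4% lower. In cows 1 to 4 the lower ones numbered 4, 7, 5 and 7 of the 9 regulators, and 5, 7, 4 and 7 of the 10 SNAREs. The excess of lower ones was thus mostly in cows 2 and 4, whose full libraries correlated less well with the rest. In 14 genes of SNARE recycling, priming and calcium sensing 7 were higher and 7 lower, and in 6 effectors of Rabs 3 and 3. At an unadjusted p under 0.05 were the recycling effector RAB11FIP5 (-0.23 ± 0.07) and the vesicle priming proteins UNC13B (-0.40 ± 0.11) and UNC13D (0.22 ± 0.09). Over all genes 2.80% were, in either direction. RAB11FIP5 and UNC13D have 3 probe sets each, of which only the brightest was read, and that of UNC13D lay below the median signal. UNC13B was lower and UNC13D higher in all 4 cows, so that these relatives had opposite means, and neither passed (adjusted p 0.993 for both in limma).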

How the data were processed

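RNA from 8 mammary biopsies (4 full, 4 empty) was labelled from an oligo(dT) primer and read on single-colour bovine arrays, per the labels' protocols. The values deposited by the authors are log2 levels of probe sets, from RMA according to the submitters' processing notes (version not given in the sources used here). In RMA, background is corrected, arrays are quantile-normalized and probes are summarised. A change common to most genes is thereby removed, and levels of different probe sets are not comparable. The log2 scale was read from the values (4.98 to 14.43). Arrays have no read depth, and their number limits the precision.

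Platform controls (112) were left out, and 24016 probe sets were fitted in limma 3.58.1 (R 4.3.3; lmFit and eBayes, two-sided) with state and cow as fixed terms. The p-values were adjusted by Benjamini-Hochberg over all 24016, at a threshold of 0.05. A gene was represented by its probe set with the highest mean among those with 1 symbol (13292 probe sets with 1 symbol, 86 with several, 10638 with none). All 69 members matched RefSeq genes of ARS-UCD2.0 by entrez number and 0 symbols changed. Pairing follows the descriptions, which name both samples of a cow. Deviations from the group means correlated at 0.46, 0.32, 0.60 and 0.53 within cows 1 to 4. Nothing says that the samples were processed apart. The p-values of full minus empty rest on the spread of the within-cow differences over these 4 cows, moderated across probe sets.

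Members, lists and alternatives were chosen with earlier results of these data known. Genes to be named were the 3 of each role with the smallest p, those at an unadjusted p under 0.05, the 6 with the largest mean difference and, per role, up to 2 that passed the cow test, 33 in all; other members are given briefly, and genes singled out in text on cows, probe sets and partners were chosen after their values were seen. Alternatives tried were the model without cow, cow as a random effect, centring on array medians, a further quantile step, brighter probe sets, a trend with robust prior, gene means, an adjusted p of 0.1 and cows left out. Lists were described by counts and medians, without a test. The fit was run on simulated data as a check of its code. The simulated noise was independent between arrays and probe sets, without the split between cows seen here. It therefore does not show how small a change would be found in these data. Tables were made with Python 3.11.15, pandas 2.3.3 and numpy 2.4.6.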

Additional observations from a re-analysis of the deposited data

Results flagged for a closer look

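In the 66 groups of 4 values formed by the 33 named genes in full and in empty gland, 4 held a value far from the other 3. The gap rule used marks about 5% of groups by chance, which is close to this count. RAB12 in empty gland of cow 2 was at 9.72, below 9.91 to 9.92 in the other cows. STXBP5 in the same library was at 7.49, below 7.84 to 7.91. STX19 in empty gland of cow 3 was at 8.46, above 8.07 to 8.11. VAMP2 in full gland of cow 1 was at 8.84, above 7.93 to 8.05.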

How the results depend on the processing

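For full minus empty no member passed under any alternative, and the smallest adjusted p of a named member was 0.525 in limma. Without the replicate block 2 members had an unadjusted p under 0.05 in limma in place of 3, and the fit changed no call. RAB26 was not among them (unadjusted p 0.186 in limma). With cow as a random effect the number was 3, without RAB26 (unadjusted p 0.101 in limma). It then took in RAB27B, which was higher in full gland (unadjusted p 0.0388 in limma). Centring on array medians left 2 members, without SNAP23 (unadjusted p 0.0555 in limma). The number of members at an unadjusted p under 0.05 was 1 among probe sets above the median signal, where 53 members remained. It was 1 to 4 with each cow left out in turn, and 10 with cows 2 and 4 left out (14.5%, against 9.65% of all genes). Those 10 held none of STXBP6, RAB26 and SNAP23, which then differed by -0.22, -0.14 and -0.14. Both further normalizations kept the directions of the 33 named genes. The other models and the filter on signal leave each mean difference as it is by construction, so they say nothing of direction. Averaging all probe sets per gene, EXOC1 turned to 0.059 and SNAP25 to -0.014. Leaving out each cow in turn gave ranges across 0 for RAB12 (-0.029 to 0.27), RAB25 (-0.33 to 0.10), RAB28 (-0.082 to 0.24), RAB29 (-0.093 to 0.036), STX2 (-0.050 to 0.20), STX4 (-0.15 to 0.013), STXBP5 (-0.11 to 0.14), VAMP5 (-0.031 to 0.12) and VAMP7 (-0.23 to 0.14). With cows 2 and 4 left out 18 named genes changed sign: RAB11A (0.046), RAB12 (-0.21), RAB18 (0.011), RAB22A (-0.019), RAB25 (0.23), RAB28 (-0.18), RAB29 (0.0061), RAB7A (0.019), RAB8B (-0.0073), STX19 (0.21), STX2 (-0.23), STX4 (0.093), STX6 (-0.066), STX8 (0.022), STXBP5 (-0.23), VAMP2 (0.14), VAMP5 (-0.16) and VAMP7 (0.24). In that fit 4 members differed between cows 1 and 3, against 0 over 4 cows. Fewer samples were used there, and the cause was not tested.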

Other observations

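With cows 2 and 4 left out, the comparison of the remaining 2 animals called 4 of the 69 genes (5.80%, against 8.07% of all genes) in limma. RAB7B was higher in cow 1 than in cow 3 (mean levels 8.53 and 7.66, adjusted p 0.00548), and so were RAB15 (8.41 and 7.75, adjusted p 0.0108), VAMP2 (8.70 and 8.06, adjusted p 0.0151) and RAB34 (8.08 and 7.64, adjusted p 0.031). In each of these genes both values of cow 1 lay above both of cow 3, which picking genes by this test makes likely and which adds no support. Leaving out cows 2 and 4 was chosen with earlier results of these data known. The fit rests on 4 arrays and compares these animals alone.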
